A study of Homo sapiens with 7 samples.

Results

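Intermediate filaments are the rope-like part of the cytoskeleton, and which of their subunits a cell makes depends strongly on its type. The genes described here are the keratins and the other filament proteins read on 7 expression arrays of DU145, an established androgen-independent human prostate carcinoma cell line. They were chosen by name: a transcript cluster (the set of probes that stands for 1 gene) had to carry exactly 1 gene symbol, and that symbol had to be KRT followed by a digit, or one of VIM, DES, NES, INA, SYNM, GFAP, NEFL, NEFM, LMNA, LMNB1 and LMNB2. Where a gene had several clusters, the brightest was taken. This gave 41 of the 14232 genes with a symbol of their own, which are part of 22011 transcript clusters in all. Of the 41, 29 were keratin proteins, 10 were filament proteins of other classes, and 2 matched the letters without being keratin proteins, namely the antisense RNA KRT10-AS1 and the pseudogene KRT18P55.

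Of the 7 arrays, 4 held RNA from DU145 cells sorted as CD44+CD24-, called CSC (cancer stem cells) in the study, and 3 held RNA from bulk parental DU145 cells. The methods speak of 3 replicates per condition, while the labels give 4 CSC samples, and all 4 were used. The labels name the sort alone. CD44 RNA itself was lower on all 4 CSC arrays than on the DU145 arrays, as given with the marker genes, although the CSC were sorted for CD44 on the cell surface. By the study's methods the CSC were grown as floating spheroids in serum-free medium with EGF, bFGF and insulin, and spheroids were pooled for RNA, whereas DU145 cells were grown attached in medium with FBS. The sort, serum, growth factors and attachment therefore differed together between the groups, and their parts cannot be told apart. Whether the arrays of 1 group stand for separate cultures is not stated, and the p-values then describe only how far these samples vary, which may be technical.

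Keratins work as pairs of an acidic type I and a basic type II protein: KRT8 with KRT18 in simple epithelia such as glands, KRT5 with KRT14 in the basal layer of stratified epithelia, and KRT1 with KRT10 in the layers above it. Vimentin (VIM), desmin (DES) and GFAP are type III proteins of mesenchymal, muscle and glial cells. The neurofilament subunits NEFL and NEFM, alpha-internexin (INA), nestin (NES) and synemin (SYNM) are counted as type IV, and lamins form the mesh under the nuclear membrane. In the prostate, luminal secretory cells make KRT8 and KRT18, and basal cells make KRT5, KRT14 and KRT15. Keratin filaments are tied to cell-cell contacts through the desmosome, whose inner plate is built of desmoplakin (DSP), plakoglobin (JUP) and plakophilins.

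The promoters of 3 of the genes with the larger differences are given for context, with the 100 bases before each RefSeq transcription start (build GRCh38.p14) read 5′ to 3′ on the gene's strand. Capitals mark GC boxes, the GGGCGG motif bound by Sp1-type factors, searched on both strands, so that the reverse complement CCGCCC counts too.
INA, chr10:103277038-103277137, plus strand: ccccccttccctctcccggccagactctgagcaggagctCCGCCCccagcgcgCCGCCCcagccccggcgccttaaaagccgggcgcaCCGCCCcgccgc
KRT8, chr12:52926470-52926569, minus strand: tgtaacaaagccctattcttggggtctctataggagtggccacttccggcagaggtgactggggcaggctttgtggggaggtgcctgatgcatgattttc
VIM, chr10:17228141-17228240, plus strand: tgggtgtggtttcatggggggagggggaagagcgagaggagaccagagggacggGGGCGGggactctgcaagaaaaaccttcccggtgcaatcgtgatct
The windows come from the first promoter entry of each gene, and any other start of the same gene was not searched. Over the full 250 bases before that start, INA held 4 GC boxes, VIM 1 and KRT8 0. Of the 35116 RefSeq promoters, 42.6% held at least 1. CACCTG, an E-box that ZEB and Snail factors bind, had 0 matches on either strand in these 3 windows, against 17.5% of all promoters. TATAAA had 0 matches on the gene strand in all 3, against 6.8%. These counts describe letters in a window and say nothing of which factor is bound. Of the 41 genes, 24 had an entry in the promoter table. KRT15 and NEFM, the genes past the test described below, are not shown. KRT15 had no entry, and NEFM was left out by choice, whether or not it had one.

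Of the keratins and other filament genes, KRT15, a basal cell keratin, and NEFM, a neurofilament subunit, differed between CSC and DU145 cells past the test. Both rose in CSC, by 2.68-fold and 2.59-fold on the linear scale, and no filament gene fell past the test. A gene was counted as changed when its limma p, adjusted by the method of Benjamini and Hochberg over all 22011 clusters, was at most 0.05 and its log2 fold change (CSC minus DU145) was at least 1 in either direction. By this rule 2 of 41 genes were higher and 0 were lower, and 39 did not pass. Over the 14232 genes the share was 1.43%, with 1% higher and 0.422% lower, and over all clusters it was 1.3%, with 0.722% higher and 0.577% lower. Before adjustment, 9 of the 41 genes had a p of at most 0.05, 7 of them higher (KRT15, NEFM, INA, KRT10-AS1, KRT32, KRT18P55 and KRT36) and 2 lower (KRT10 and VIM), against 19.1% of all genes and 19.7% of all clusters. With no limit on the fold change, the same 2 genes had an adjusted p of at most 0.05, against 2.13% of all genes and 2.04% of all clusters. In 8 genes every CSC array lay on 1 side of every DU145 array, 6 higher and 2 lower, against 16.5% of all genes (12.7% higher and 3.77% lower) and 16.9% of all clusters (10.8% higher and 6.13% lower). The median log2 fold change of the 41 genes was 0.08, that of all clusters 0.08 and that of all genes 0.10. Of the 41 genes, 35 lay within 0.5 of no difference on the log2 scale, as did 12359 of the 14232 genes, a similar share. A gene said to be at a value in what follows had that log2 fold change, CSC minus DU145. In a bulk RNA sample, fewer cells that express a gene and less of its RNA per cell cannot be told apart.

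**Figure D1:**
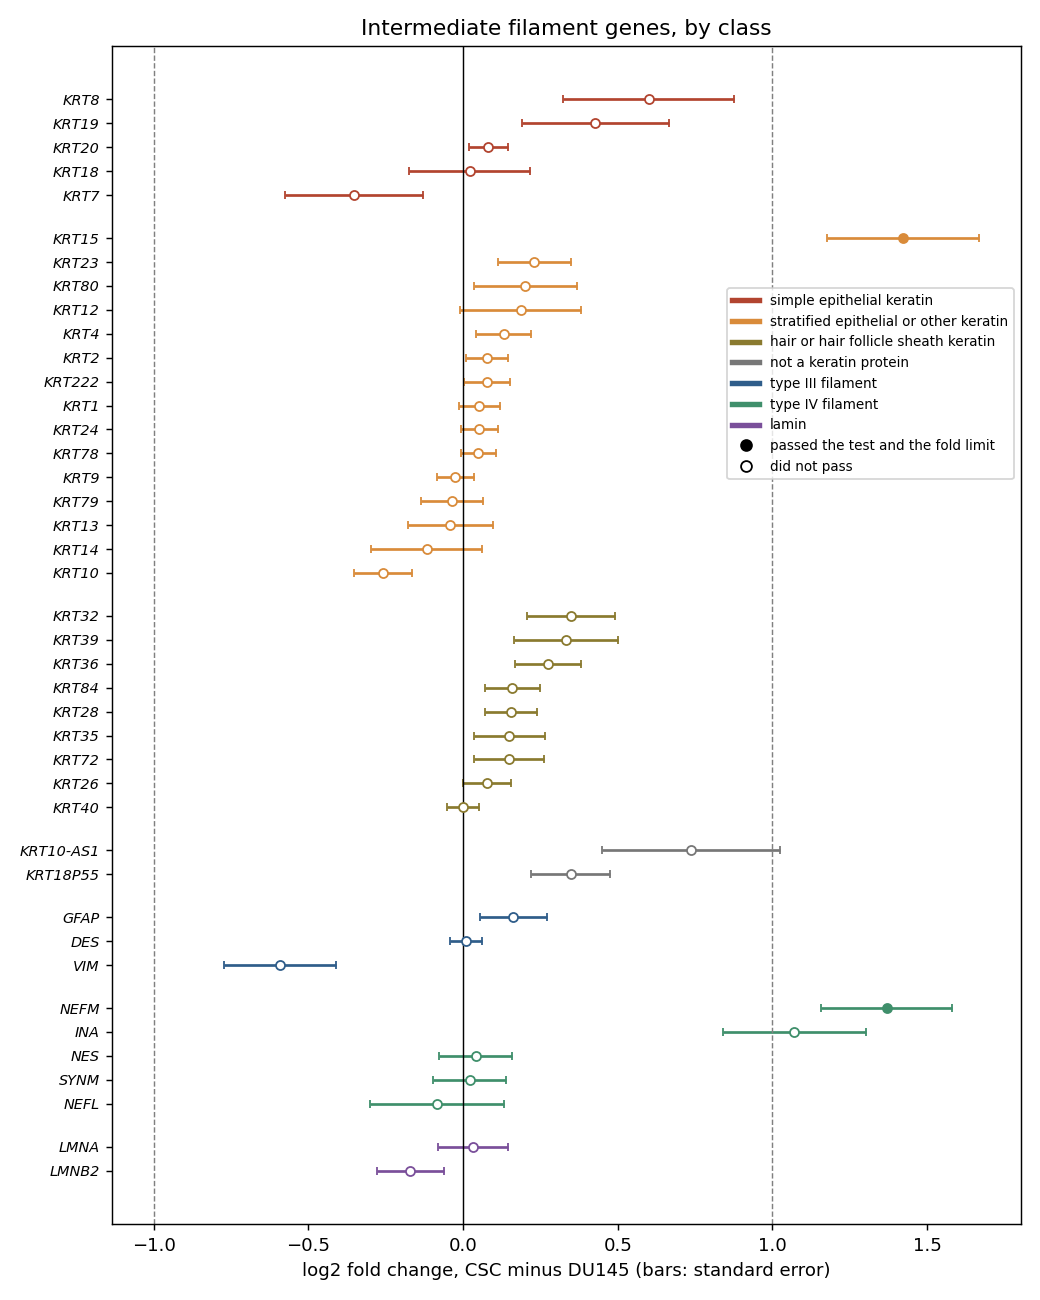
Log2 fold change (CSC minus DU145) of each of the 41 intermediate filament genes, grouped and coloured by class, with the standard error as bars and dashed lines at the fold limit of 1 in each direction. Only KRT15 and NEFM have filled points, which mark genes past the test and the fold limit, and INA lies past the dashed line with an open point because its adjusted p was 0.0757.

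KRT15, a type I keratin of basal epithelial cells and of the stem cell region of the hair follicle, had the largest difference of the 41 genes. It read 5.52, 6.04, 6.02 and 6.59 log2 units on CSC arrays 1 to 4, against 4.75, 4.69 and 4.41 on DU145 arrays 1 to 3. The lowest CSC array lay above the highest DU145 array, and CSC array 4 stood highest and array 1 lowest within its group. KRT15 was a dim cluster: its mean over all 7 arrays was 5.43, below the median cluster mean of 5.85 log2 units. The means were 6.04 ± 0.44 in CSC (SD, n = 4) and 4.62 ± 0.18 in DU145 cells (SD, n = 3), a log2 fold change of 1.42 with a standard error of 0.25 (95% interval 0.83 to 2.02, limma adjusted p = 0.0471). The exact permutation test over all 35 splits of the arrays gave p = 0.0286, two-sided, the smallest that this design can give. Leaving out CSC array 1 kept the call, and leaving out each of the other 6 arrays lost it, with log2 fold changes of 1.24 to 1.6 and adjusted p-values of 0.0347 to 0.145 over the 7 fits.

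KRT14, the basal keratin that pairs with KRT5, did not pass the test. Its values were 6.97, 6.47, 6.22 and 6.61 in CSC and 6.56, 6.71 and 6.79 in DU145 cells, and the groups overlapped. The means were 6.57 ± 0.31 in CSC (SD, n = 4) and 6.68 ± 0.12 in DU145 cells (SD, n = 3). The log2 fold change was -0.12 with a standard error of 0.18 and an interval of -0.55 to 0.31 (limma adjusted p = 0.732). KRT5 itself, its type II partner, was read only in a cluster that also names KRT7, with a log2 fold change of 0.12 (adjusted p = 0.447). A second cluster shared by KRT14 and KRT16, a keratin of wounded epidermis, gave 0.32 (adjusted p = 0.236). Of the basal keratins named here, KRT15 was the one past the test.

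Of the 15 keratins of stratified epithelia and of other or wider distribution, KRT15 was the only one past the test. KRT10, the suprabasal partner of KRT1, had 5.15, 5.08, 4.99 and 5.04 in CSC and 5.20, 5.26 and 5.51 in DU145 cells. All 4 CSC values lay below all 3 DU145 values, with a log2 fold change of -0.26, a standard error of 0.09 and an adjusted p of 0.209 in limma. KRT1 was at 0.05. KRT4 and KRT13, the pair of mucosal stratified epithelia such as the oesophagus, were at 0.13 and -0.04. KRT2 of the upper epidermis was at 0.08, KRT9 of palm and sole skin at -0.02 and KRT12 of the cornea at 0.19. The remaining members, KRT23, KRT24, KRT78, KRT79, KRT80 and KRT222, lay between -0.04 and 0.23.

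None of the 5 simple epithelial keratins passed the test, and KRT8 had the largest difference among them. KRT8 read 9.96, 10.72, 10.79 and 9.79 in CSC, against 9.70, 9.79 and 9.65 in DU145 cells. CSC arrays 2 and 3 stood about 1 log2 unit above the DU145 arrays, while arrays 1 and 4 lay at or just above the DU145 range. The means were 10.32 ± 0.52 (SD, n = 4) in CSC and 9.72 ± 0.07 (SD, n = 3) in DU145 cells, with a log2 fold change of 0.60, a standard error of 0.28, a 95% interval of -0.06 to 1.26 and a limma adjusted p of 0.291.

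KRT18, which pairs with KRT8, had 8.15, 8.50, 8.42 and 8.57 in CSC and 7.95, 8.59 and 8.62 in DU145 cells. The groups overlapped over most of their range, around means of 8.41 ± 0.18 (SD, n = 4) in CSC and 8.39 ± 0.38 (SD, n = 3) in DU145 cells. Its log2 fold change was 0.02 with a standard error of 0.20 and an interval of -0.45 to 0.49 (limma adjusted p = 0.963), and its sign turned with median centring (-0.05) and with quantile normalization (-0.07). KRT8 and KRT18 share sequence with many processed copies, 52 and 68 pseudogenes in the RefSeq gene table, so their readings may include signal from such copies.

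KRT19, a type I keratin of ducts and glands, had 8.52, 8.14, 8.43 and 7.67 in CSC and 7.5, 8.05 and 7.73 in DU145 cells. Its groups overlapped through CSC array 4, with means of 8.19 ± 0.38 in CSC (SD, n = 4) and 7.76 ± 0.27 in DU145 cells (SD, n = 3). The log2 fold change was 0.43 with a standard error of 0.24 and an interval of -0.15 to 1.0 (limma adjusted p = 0.368). KRT7, a type II keratin of ductal epithelia, had 9.58, 9.03, 9.08 and 8.63 in CSC and 9.28, 9.38 and 9.63 in DU145 cells. Only CSC array 1 reached into the DU145 range, and the means were 9.08 ± 0.39 in CSC (SD, n = 4) and 9.43 ± 0.18 in DU145 cells (SD, n = 3). The log2 fold change was -0.35 with a standard error of 0.22 and an interval of -0.89 to 0.19 (adjusted p = 0.422). KRT20, a keratin of intestinal epithelium and urothelial umbrella cells, read 3.65 ± 0.03 in CSC (SD, n = 4) and 3.57 ± 0.08 in DU145 cells (SD, n = 3).

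The keratin genes lie in 2 clusters on the genome, and the 29 read here were 18 on chromosome 17 and 11 on chromosome 12. KRT15 lies between KRT13, at -0.04, and KRT19, at 0.43, and neither of these neighbours passed the test. KRT8 and KRT18 stand next to each other on chromosome 12. NEFM and NEFL are likewise neighbours.

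Keratins of hair and of the hair follicle sheath had 9 genes read and 0 past the test. KRT32, a type I hair keratin, had 4.27, 4.25, 4.53 and 4.72 in CSC and 4.19, 4.15 and 3.93 in DU145 cells, without overlap, at a log2 fold change of 0.35 (limma adjusted p = 0.247). KRT39, another hair keratin, had 4.10, 3.76, 3.76 and 3.93 in CSC and 3.19, 3.75 and 3.71 in DU145 cells, and here the nearest values of the groups were almost equal. KRT36 was at 0.28, and KRT26, KRT28, KRT35, KRT72 and KRT84 lay between 0.08 and 0.16. KRT40 gave 3.57 on all 7 arrays. The deposited values often repeated in this way: 13 of the 41 genes (31.7%) had 1 identical value on at least 4 arrays, against 17.2% of all genes, and 26 of the 41 lay below the median cluster mean of 5.85 log2 units. The files hold no detection p-values, so a low reading cannot be called present or absent.

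The 2 entries that are not keratin proteins both leaned upward without passing. KRT10-AS1, the antisense RNA at KRT10, had 5.25, 5.85, 5.41 and 5.45 in CSC and 4.52, 4.32 and 5.42 in DU145 cells, with overlap at DU145 array 3 and a limma adjusted p of 0.231. Its log2 fold change was 0.74 where that of KRT10 was -0.26. KRT18P55, a KRT18 pseudogene, had 5.08, 5.22, 5.08 and 5.18 in CSC and 4.50, 4.92 and 4.96 in DU145 cells, without overlap and with an adjusted p of 0.21. Whether the probes separate the strands, or the pseudogene from KRT18, is not given in the sources used here.

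Vimentin, the filament protein of mesenchymal cells, was lower on every CSC array without passing the test. It read 9.87, 10.30, 10.31 and 10.14 in CSC and 10.56, 10.56 and 11.12 in DU145 cells. The highest CSC value lay below the lowest DU145 value. The means were 10.16 ± 0.20 in CSC (SD, n = 4) and 10.75 ± 0.32 in DU145 cells (SD, n = 3). The log2 fold change was -0.59 with a standard error of 0.18 and a 95% interval of -1.03 to -0.16, an unadjusted p of 0.0153 and a limma adjusted p of 0.157, and the exact permutation p was 0.0286. The study measured vimentin as protein and by immunofluorescence saw it in rare spheroid cells only, against high levels in DU145 cells. RNA and protein are different measures, and VIM RNA still averaged 10.16 in CSC. DES, the muscle filament protein, gave 5.90 to 5.93 on the CSC arrays and 5.90 on all 3 DU145 arrays. GFAP, the filament protein of astrocytes, had 5.42, 5.32, 5.68 and 5.32 in CSC and 5.32, 5.32 and 5.17 in DU145 cells, at a log2 fold change of 0.16 (adjusted p = 0.439).

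NEFM, the medium neurofilament subunit, rose in CSC. Its values were 9.81, 9.14, 9.01 and 8.98 in CSC, against 7.85, 7.82 and 7.93 in DU145 cells. All CSC arrays stood at least 1 log2 unit above the DU145 arrays, and CSC array 1 was the highest. The means were 9.24 ± 0.39 (SD, n = 4) in CSC and 7.87 ± 0.06 (SD, n = 3) in DU145 cells, a log2 fold change of 1.37 with a standard error of 0.21 (95% interval 0.86 to 1.88, limma adjusted p = 0.0364, exact permutation p = 0.0286). As with KRT15, the call was kept without CSC array 1 and lost without each of the other 6 arrays, with log2 fold changes of 1.18 to 1.46 and adjusted p-values of 0.0067 to 0.131.

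INA, alpha-internexin, a neurofilament protein of early and central neurons that assembles with NEFM and NEFL, had the third largest difference. It read 8.30, 7.92, 7.97 and 7.40 in CSC and 6.97, 6.51 and 7.0 in DU145 cells, without overlap. The means were 7.90 ± 0.37 in CSC (SD, n = 4) and 6.83 ± 0.27 in DU145 cells (SD, n = 3). The log2 fold change was 1.07 with a standard error of 0.23, an interval of 0.51 to 1.63 and a limma adjusted p of 0.0757, so it passed the fold limit and missed the threshold. Its place past the fold limit was not stable. INA was at 0.996 with median centring and 0.96 with quantile normalization. With 1 array left out INA ran from 0.92 to 1.24, with limma adjusted p-values of 0.0521 to 0.201. NEFL, the light subunit and the neighbour of NEFM, had 5.83, 6.49, 6.64 and 6.28 in CSC and 6.25, 6.25 and 6.67 in DU145 cells, at -0.08 (interval crossing 0, adjusted p = 0.849). Of these 3 genes NEFM alone passed the test, and the differences between the genes were not tested. Nestin, a filament protein of neural progenitors, gave 5.93 to 5.94 on the 4 CSC arrays and 5.93, 6.12 and 5.63 on the DU145 arrays, at 0.04 with a standard error of 0.12 (adjusted p = 0.866), and its sign turned with median centring (-0.03) and quantile normalization (-0.05). SYNM, a protein that joins filaments of desmin or vimentin, was at 0.02 (adjusted p = 0.939).

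Beside the neurofilament genes, the 6 neuroendocrine markers (CHGA, CHGB, SYP, NCAM1, ENO2 and INSM1) were read, and 0 of 6 passed the test. Their mean log2 value was 5.11 to 5.42 over the CSC arrays and 4.86 to 5.16 over the DU145 arrays. ENO2, the neuronal enolase, was the one without overlap, with 7.33, 7.65, 7.73 and 7.91 in CSC and 6.90, 6.78 and 6.96 in DU145 cells (log2 fold change 0.78, limma adjusted p = 0.0551). S100B, a glial marker, read 1.87 to 2.54 in CSC and 1.96 to 2.66 in DU145 cells. Whether a change in cell makeup had a part in NEFM and INA was not tested.

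No lamin gene passed the test. LMNA, which encodes lamins A and C, had 8.33, 8.04, 7.97 and 8.06 in CSC and 7.94, 8.21 and 8.06 in DU145 cells, at 0.03 with a standard error of 0.11 and an interval of -0.24 to 0.30 (limma adjusted p = 0.898), and its sign turned with median centring (-0.04) and quantile normalization (-0.07). LMNB2, one of the B-type lamins, had 7.45, 7.43, 7.33 and 7.13 in CSC and 7.43, 7.43 and 7.66 in DU145 cells, at -0.17 with a standard error of 0.11 and an interval of -0.43 to 0.09 (adjusted p = 0.422). LMNB1 was read only in a cluster that also names PCIF1, at -0.16 (limma adjusted p = 0.593). Of 17 genes for proteins that anchor or process lamins, 16 were read and 0 passed, with a median of 0.08 and a range of -0.42 for LBR, the lamin B receptor, to 0.27 for LEMD3, an inner membrane protein.

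**Figure D2:**
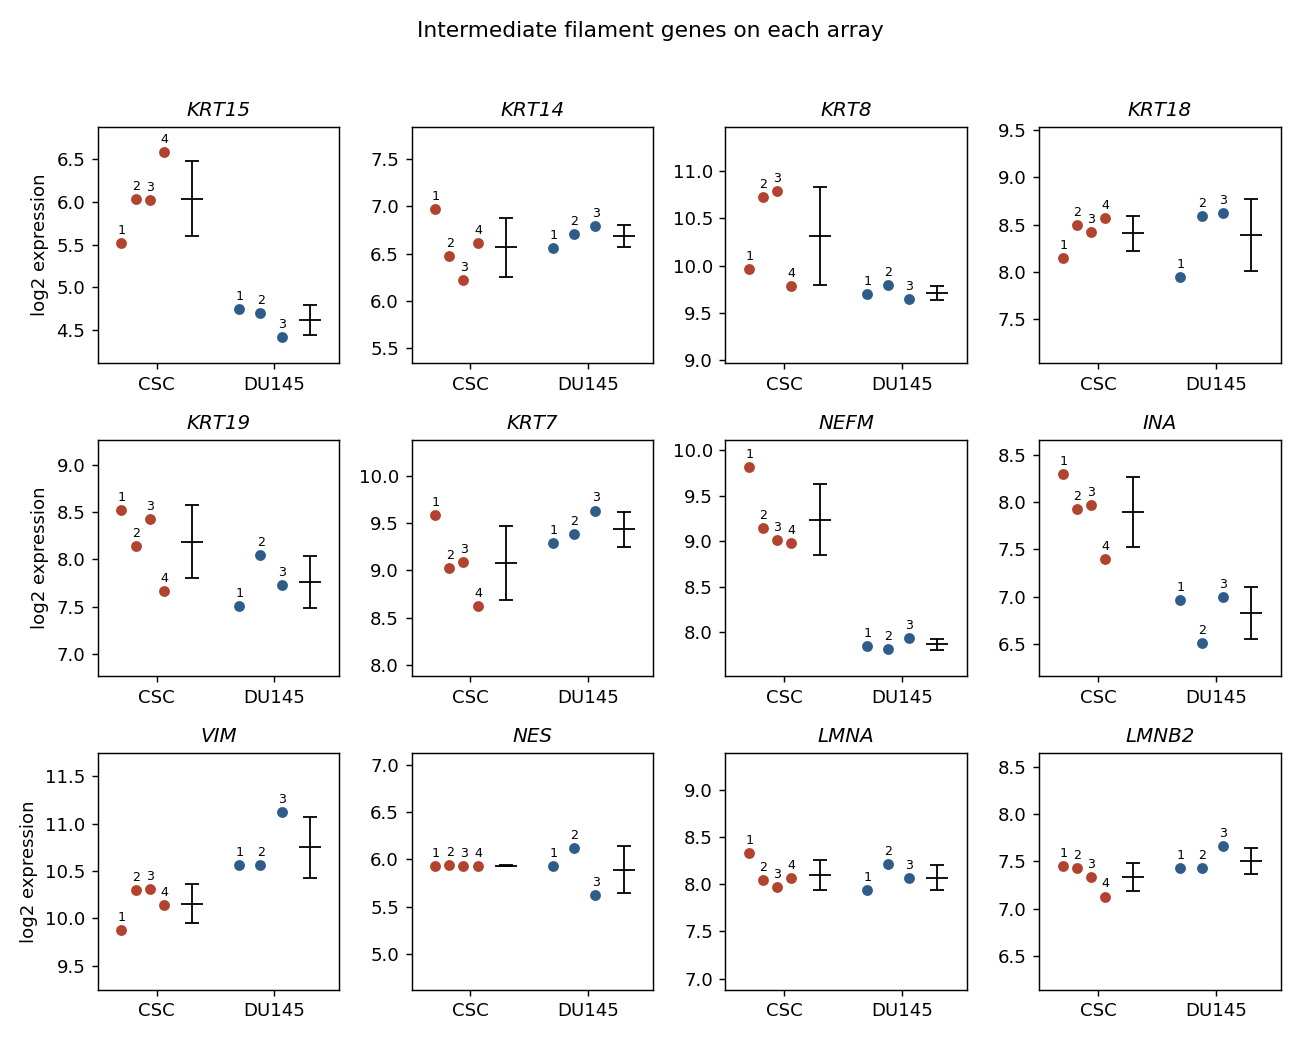
Log2 expression of 12 intermediate filament genes on each of the 4 CSC arrays and 3 DU145 arrays, with the replicate number over each point and the mean with its SD to the right of each group. KRT15, NEFM and INA have all CSC points above all DU145 points, VIM has them all below, and the other 8 genes overlap.

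The desmosome genes, whose proteins fasten keratin filaments to the cell surface, had 13 read. Of these, 3 rose in CSC, 0 fell and 10 did not pass, with a median log2 fold change of 0.09. Over all genes 1.43% passed, 1% higher and 0.422% lower. The list was chosen with earlier results of these data known, so the count is a description only. JUP, plakoglobin, had 7.66, 8.29, 8.36 and 8.35 in CSC and 6.14, 6.48 and 6.76 in DU145 cells, a log2 fold change of 1.70 with a standard error of 0.23 (limma adjusted p = 0.0263). DSP, desmoplakin, which binds the keratins directly, had 9.23, 9.25, 9.43 and 9.88 in CSC and 8.16, 8.42 and 8.35 in DU145 cells, at 1.14 with a standard error of 0.17 (adjusted p = 0.035). DSC2, a desmosomal cadherin, had 9.31, 9.45, 9.26 and 9.28 in CSC and 8.36, 8.05 and 8.53 in DU145 cells, at 1.01 with a standard error of 0.12 (adjusted p = 0.0222). In all 3 the lowest CSC array stood above the highest DU145 array. The study itself chose JUP on these arrays. All 3 calls rest on the same arrays, so none is evidence independent of the study's own result.

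Other desmosome genes lay past the fold limit without an adjusted p under the threshold, and in opposite directions. PKP2, plakophilin 2, had 6.46, 7.01, 6.92 and 7.35 in CSC and 5.94, 5.56 and 6.04 in DU145 cells, at 1.09 (limma adjusted p = 0.069). DSC3, a desmosomal cadherin of basal layers, had 3.92, 3.41, 3.46 and 3.15 in CSC and 4.61, 4.28 and 5.03 in DU145 cells, at -1.16 (adjusted p = 0.0665). Both were without overlap. DSG2, the desmoglein of simple epithelia, had 10.73, 10.78, 10.52 and 10.54 in CSC and 10.09, 9.88 and 10.23 in DU145 cells, at 0.58 (adjusted p = 0.064). The other 7 desmosome genes lay between -0.08 and 0.19.

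Plakins and hemidesmosome proteins, which fasten keratins to the basal surface and to other filaments, had 6 of 11 genes read and 0 past the test, with a median of -0.15. ITGA6, the integrin alpha 6 chain, had 9.05, 8.93, 8.80 and 9.14 in CSC and 9.37, 9.40 and 9.45 in DU145 cells, at -0.43 (limma adjusted p = 0.079). DST, dystonin, had 8.90, 9.40, 9.18 and 9.69 in CSC and 9.86, 10.14 and 9.90 in DU145 cells, at -0.67 (adjusted p = 0.136). Both were lower on all CSC arrays. MACF1, a plakin that links actin and microtubules, was furthest from 0 at -0.74 (adjusted p = 0.29), with 2.69, 3.75, 3.84 and 3.72 in CSC and 3.83, 4.21 and 4.69 in DU145 cells. Its groups overlapped, and CSC array 1 was far below the rest. On the other side of 0 were PPL, periplakin, at 0.40 (unadjusted p = 0.0189, adjusted p = 0.17), ITGB4, the partner of ITGA6, at 0.26, and plectin (PLEC), which links keratins to that integrin, at 0.14. Over the desmosome, plakin and nuclear envelope genes together, 35 of 41 were read. Of these, 3 were higher and 32 did not pass, where 1.43% of all genes passed. Without CSC array 1 the calls were DSC2, JUP and PKP2, so DSP was lost. DSC2 alone was called without CSC array 4 or without DU145 array 3, and 0 genes were called without CSC array 2 or 3 or DU145 array 1 or 2. With median centring the calls were DSP and JUP, both higher, and DSC3, lower, and with quantile normalization they were DSP and JUP, so the call of DSC2 ended in both.

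**Figure D3:**
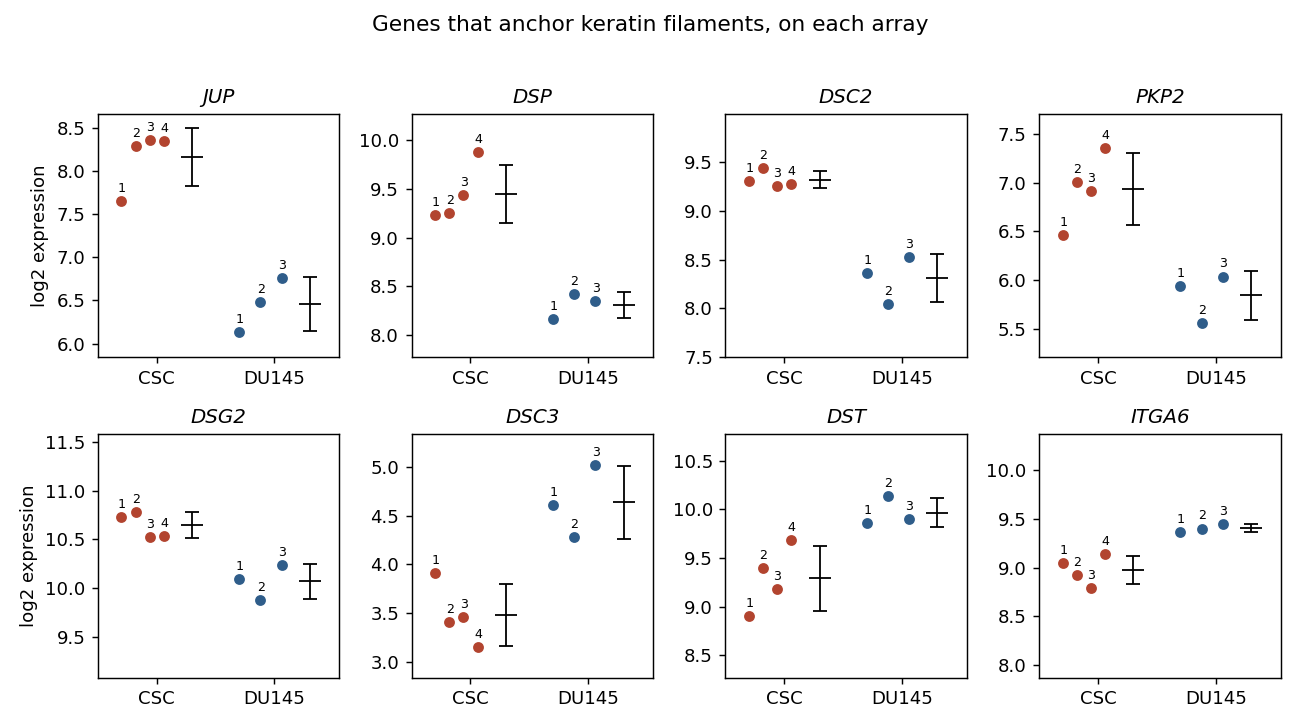
Log2 expression of desmosome and plakin genes that link intermediate filaments to cell contacts, on each of the 4 CSC arrays and 3 DU145 arrays, with the replicate number over each point and the mean with its SD beside each group. JUP, DSP and DSC2, the 3 that passed the test, have all CSC points above all DU145 points, as do PKP2 and DSG2, while DSC3, DST and ITGA6 have all of them below.

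Genes of the cornified envelope, the shell of dead surface cells in stratified epithelia, had 11 of 18 read and 0 past the test, with a median of 0.25. CSTA, cystatin A, had the largest value at 0.72 (limma adjusted p = 0.0692), without overlap, followed by LORICRIN at 0.48, CNFN at 0.42 and SBSN and SPRR3 at 0.31 each, and 0 of these passed. Among 22 transcription factors known to act on epithelial genes, 20 were read, with a median of 0.17. Against 1% higher and 0.422% lower of all genes, 1 was higher and 0 were lower. That one, KLF4, had 6.91, 6.23, 6.34 and 6.33 in CSC and 5.40, 5.38 and 5.57 in DU145 cells. It was at 1.003 (limma adjusted p = 0.0495), just past both limits, and how this call fared under other processing was not examined. The study had chosen KLF4 on these arrays, so it is not independent evidence. EHF, an ETS factor of epithelia, had 4.55, 5.74, 5.77 and 6.45 in CSC and 3.33, 3.49 and 3.50 in DU145 cells, at 2.19 (adjusted p = 0.0576). GRHL2 was at 1.58 (adjusted p = 0.0716) and ZEB1, a repressor of epithelial genes, at -1.06 (adjusted p = 0.112). Of the 20 factors, 6 were higher and 1 was lower without overlap between the groups, against 12.7% and 3.77% of all genes. EHF, GRHL2 and ZEB1 were among these, and none of the 3 passed the test. On the same list, ZEB2 (0.04), SNAI1 (0.003), SNAI2 (0.08) and TWIST1 (0.15) overlapped between the groups.

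The 4 CSC arrays differed among themselves by 0.5 log2 units or more in 10 of the 41 genes, and not in 1 common order. KRT15 spanned 1.07 and was lowest on array 1 and highest on array 4, whereas NEFM, spanning 0.83, and INA, spanning 0.90, were highest on array 1 and lowest on array 4. KRT7 (0.95) and KRT19 (0.86) followed the order of NEFM at both ends, and KRT8 (1.0) was high on arrays 2 and 3. CSC array 1 alone was highest of its group in 19 of the 41 genes (46.3%), against 25.4% of all genes.

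**Figure D4:**
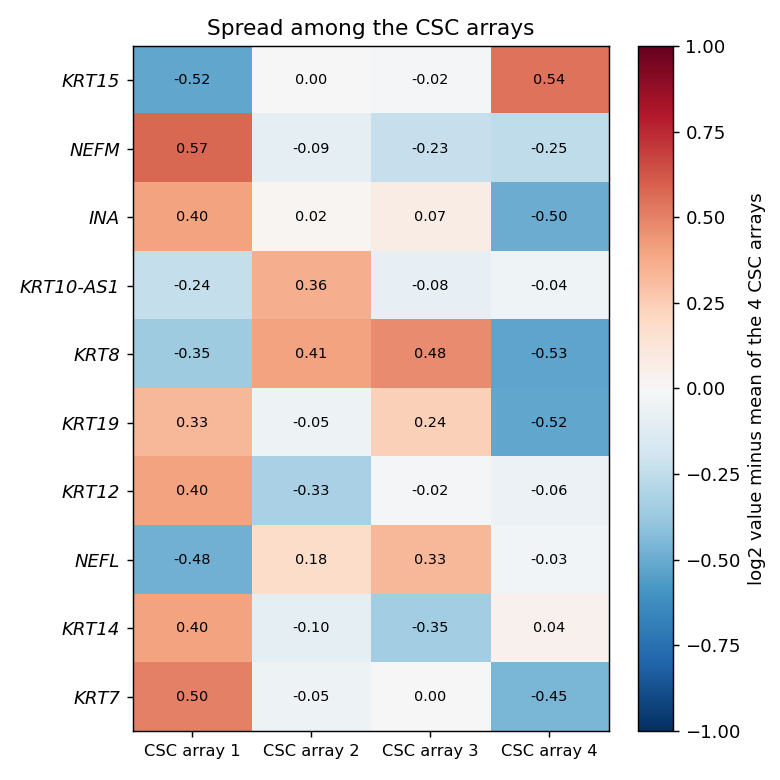
Deviation of each CSC array from the mean of the 4 CSC arrays, in log2 units, for the 10 intermediate filament genes whose CSC arrays spanned at least 0.5. KRT15 runs from -0.52 on array 1 to 0.54 on array 4, and NEFM and INA run the other way, at 0.57 and 0.40 on array 1 and -0.25 and -0.50 on array 4.

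As a check of the labelled cells, CDH1 (E-cadherin, also chosen by the study) and EPCAM, which mark epithelial cells, both rose in CSC, by 3.32 and 1.92 on the log2 scale (limma adjusted p = 0.00285 and 0.00209). Of the sort markers, CD44 had 8.25, 7.60, 8.07 and 7.09 in CSC and 8.79, 8.62 and 9.39 in DU145 cells, below DU145 on every CSC array (adjusted p = 0.128), and CD24 was at -0.40 (adjusted p = 0.449). On these arrays CD44 RNA was thus not higher in the cells sorted for it, which by the study's methods were grown as spheroids after the sort. By quantitative PCR the study reported similar CD44 RNA in spheroids and DU145 cells, and significantly lower CD24 RNA in spheroids. Of the prostate luminal markers 6 of 10 were read and 0 passed the test, with a median of 0.07. Beside KRT8 and KRT18 they were TMPRSS2 at 0.19, HOXB13 at 0.12, and KLK3 and KLK2 both at -0.04. Of the prostate basal markers 3 of 5 were read, and KRT15 alone passed the test. NGFR was at 0.17 with overlap (limma adjusted p = 0.418), and KRT14 is given above. KRT5 and TP63 had no cluster of their own. Fibroblast (7 of 8 read), endothelial (5 of 5), leukocyte (4 of 6) and muscle (3 of 4) markers held 0 genes past the test. The leukocyte list averaged 4.73 to 5.03 in CSC and 4.42 to 4.53 in DU145 cells, with CD68, a lysosomal protein, at 0.91 (adjusted p = 0.154). The fibroblast list averaged 3.94 to 4.02 in CSC and 3.81 to 3.92 in DU145 cells. Array medians were 5.88 to 5.91 in CSC and 5.77 to 5.89 in DU145 cells. With each array centred on its median, KRT15 was at 1.35 (limma adjusted p = 0.0404) and NEFM at 1.30 (adjusted p = 0.0297), both past the test. The part of the leukocyte and fibroblast lists in the results was not tested.

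A further 17 symbols of the family, among them KRT3, KRT5, KRT16, KRT31, KRT71 and LMNB1, were read only in clusters that name several genes. Of the 21 clusters of several genes with a keratin or LMNB1, 0 passed the test, and their log2 fold changes were -0.19 to 0.52.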

How the data were processed

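RNA from 4 CD44+CD24- (CSC) and 3 parental DU145 samples was hybridised to Affymetrix Human Exon 1.0 ST arrays, 1 array a sample. The deposited values are log2 expression per transcript cluster (22011 clusters, 0.24 to 13.8), which by the study's methods the authors made by RMA in oneChannelGUI. For the genome build and any filters: not given in the sources used here. Gene symbols came from the platform annotation: 14432 clusters had 1 symbol, 2408 several and 5171 none, and all 41 members matched the RefSeq gene table by ID. Arrays have no read depth, and their number limits the precision. Groups were compared over all clusters with limma 3.58.1 (R 4.3.3), with Benjamini-Hochberg adjustment, at the thresholds of the study's array methods, which also use an empirical Bayes test with false discovery rate correction, and single genes also by exact two-sided permutation over 35 splits. The limma fit called 286 clusters and 203 of the 14232 genes, fewer than the study reported. The calls here are thus not the study's list, and the reason for the difference was not tested. limma was tested on simulated data. Alternatives were unadjusted p, a brightness filter, median centring, quantile normalization, trended robust moderation, array weights, a replicate block, averaging over a gene's clusters, the methods' t-test (the unpaired test, which the study did not name for the arrays) and leaving out each array. Members and lists were chosen with earlier results of these data known. Every member is named, those called, past the fold limit or best known in their class with full values, and of each list the called genes and up to 4 with the largest change. DSG2, ITGB4, PLEC, SPRR3, ZEB2, SNAI1, SNAI2, TWIST1 and NGFR were added after their values were seen.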

Additional observations from a re-analysis of the deposited data

Results flagged for a closer look

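In 9 of the 41 filament genes 1 CSC array stood apart from the other 3, with a gap to the nearest of them above Dixon's 95% critical value for 4 samples. In each the other 3 CSC arrays held the same value, and the whole CSC range was 0.00988 to 0.21 log2 units, so the gaps are small. They were KRT80 on CSC array 3 at 6.84, KRT28 on array 3 at 3.45, KRT26 on array 1 at 2.15, KRT222 on array 1 at 2.51, KRT24 on array 1 at 3.01, NES on array 2 at 5.94, DES on array 1 at 5.93, KRT9 on array 4 at 4.31 and KRT13 on array 2 at 5.30. Where the other 3 values are identical, a gap of any size meets the limit, so its nominal rate of 1 in 20 does not apply to these 9 genes. Of all genes 18.7% met the same limit, against 22% of the filament genes. None of the 9 passed the test between the groups. Of the other genes named above, JUP met the limit on CSC array 1 at 7.66, below its other 3 CSC arrays but above every DU145 array, and KLF4 on array 1 at 6.91, above its other 3. MACF1 on array 1 at 2.69, TMPRSS2 on array 4 at 4.35, PLEC on array 1 at 6.93, LEMD3 on array 3 at 7.70 and KLK2 on array 4 at 4.96 met it too.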

How the results depend on the processing

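The count of filament genes higher in CSC was 2, became 0 with the methods' t-test, which is not the test the study used on the arrays, and 0 with a replicate block, and ran from 0 to 2 with 1 array left out (2 without CSC replicate 1, 0 without each of the other 6). It was 3, with INA added to KRT15 and NEFM, at an unadjusted p and with array weights, and 2 (INA and NEFM) among clusters brighter than the median, where KRT15 has no value. No filament gene was called lower under any of these alternatives. With no fold limit the count was 2, became 9 at an unadjusted p, 0 with the methods' t-test and 0 with a replicate block, and ran from 0 to 2 with 1 array left out. The linker count of 3 became 5 at an unadjusted p, 5 with array weights, 0 with the methods' t-test and 0 with a replicate block, and ran from 0 to 3 with 1 array left out. DSC3, called lower, and PKP2 were the added genes at an unadjusted p and with array weights, median centring put DSC3 in place of DSC2, and quantile normalization lost DSC2, for a count of 2. Over all clusters the call count was 286, with 43 by the methods' t-test, 0 with the replicate block, and 56, 59 and 129 without DU145 replicates 1, 2 and 3, and 279, 86, 136 and 230 without CSC replicates 1 to 4. Same-numbered arrays deviated together with correlations of 0.07, -0.01 and 0.05, so the numbers were not taken to pair them. In the replicate block CSC array 4 had no DU145 array of its number and did not bear on the difference. KRT15 was there at 1.24, as without CSC array 4. The block also leaves less data to estimate the error, so its counts of 0 cannot tell a lost difference from lost precision. The median log2 fold change of 0.08 moved to 0.021 among brighter clusters and 0.0026 with median centring, and was 0.08 to 0.11 with 1 array left out. The signs of 3 genes near 0 turned: KRT18 to -0.054 with centring, -0.072 with quantile normalization and -0.031 with the replicate block (-0.20 to 0.14 with 1 array left out), LMNA to -0.044 with centring, -0.075 with quantile normalization and -0.019 with array weights (-0.045 to 0.10), and NES to -0.034 with centring, -0.048 with quantile normalization and -0.039 with array weights (-0.092 to 0.15). The cause was not tested, except that leaving out arrays leaves fewer samples. KRT15, NEFM, INA and VIM kept their direction throughout.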

Other observations

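Other filament genes lie outside the naming rule, and the following were picked after their values were seen. BFSP1, a filament protein of the eye lens, had 6.28, 6.93, 7.07 and 7.95 in CSC and 5.21, 4.95 and 5.15 in DU145 cells, a log2 fold change of 1.95 with a standard error of 0.37 and no overlap between the groups. Its limma adjusted p was 0.0555, so it did not pass. NEFH, the heavy neurofilament subunit, was at 0.19 (adjusted p = 0.551), PRPH, peripherin, at 0.27 (adjusted p = 0.27) and BFSP2, the lens partner of BFSP1, at 0.07 (adjusted p = 0.627).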
